A study of Mus musculus with 11 samples.

Results

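Gene expression after AI-8-45 was set against expression after AI-7-54, the only pair of compounds in the series given at an equal dose. Of the 11 arrays, 7 were chosen by their labels: 4 of cells exposed to AI-8-45 at 100 µM (replicates 1 to 4) and 3 of cells exposed to AI-7-54 at 100 µM (replicates 1, 3 and 4), each for 8 h. The labels call both compounds inhibitors of the Runt domain, the DNA-binding part of the RUNX proteins. Every array held RNA of 1 mouse leukaemia line, 720, of the T-cell acute lymphoblastic type (T-ALL). The animal it came from was Tcf12+/- and carried a Tal1 transgene under the promoter of Lck, which is active in developing T cells, so both groups share these alleles. The other 4 arrays, of AI-9-54 at 50 µM, entered only the estimate of the spread between arrays. No vehicle or untreated sample was analysed here, so higher and lower mean AI-8-45 relative to AI-7-54 and give neither compound's own effect. The labels do not say whether replicates were separate cultures, so p-values measure only the spread between these arrays.

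RUNX1 pairs with CBFB on DNA, and in T-ALL it works in a circuit with TAL1, LMO proteins, GATA3, MYB and the E proteins TCF3 and TCF12. TAL1 and the ID proteins oppose E proteins by pairing with them. The main groups of genes that differed lay elsewhere: sterol synthesis, which SREBP-2 switches on when membrane cholesterol runs low, and ribosome assembly, which MYC and growth signals drive.

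Values are deposited log2 intensities, 1 probe set per gene, so a difference of 1 is a 2-fold change in signal. Between arrays of different compounds the correlation over all genes was 0.996 to 0.998, against 0.998 to 0.999 within AI-7-54 and 0.997 to 0.998 within AI-8-45. At a Benjamini-Hochberg adjusted p below 0.05 in limma, 1255 of 22180 genes were called (5.66%). Of these, 473 were higher after AI-8-45 (2.13%) and 782 were lower (3.53%). The 7 arrays did not overlap between the groups for 3517 genes (15.9%), among them 1246 of the called genes. Most called differences were small: the median was 0.29 among the higher genes and -0.30 among the lower genes, and over all genes it was 0.00. Only 10 called genes differed by 2-fold or more. Tceal1 and Abcb1b were higher, and Bex6, Hspa1b, I830077J02Rik, Scd1, Sqle, Cyp51, Lss and Msmo1 were lower. Over all genes, called ones included, the 95% interval of the difference lay within ±0.25 for 68.2%, within ±0.5 for 95.8% and within ±1 for 99.7%. These intervals bound the signal, which may be compressed in dim genes. The calls rested most on replicates 3 and 4 of AI-7-54, which had only 3 arrays. There were 540 calls without its replicate 3, 622 without its replicate 4 and 1047 without its replicate 1. Without 1 of the AI-8-45 arrays there were 935 to 1091. Of the 1255 genes, 467 were called whichever of the 11 arrays was left out.

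**Figure D1:**
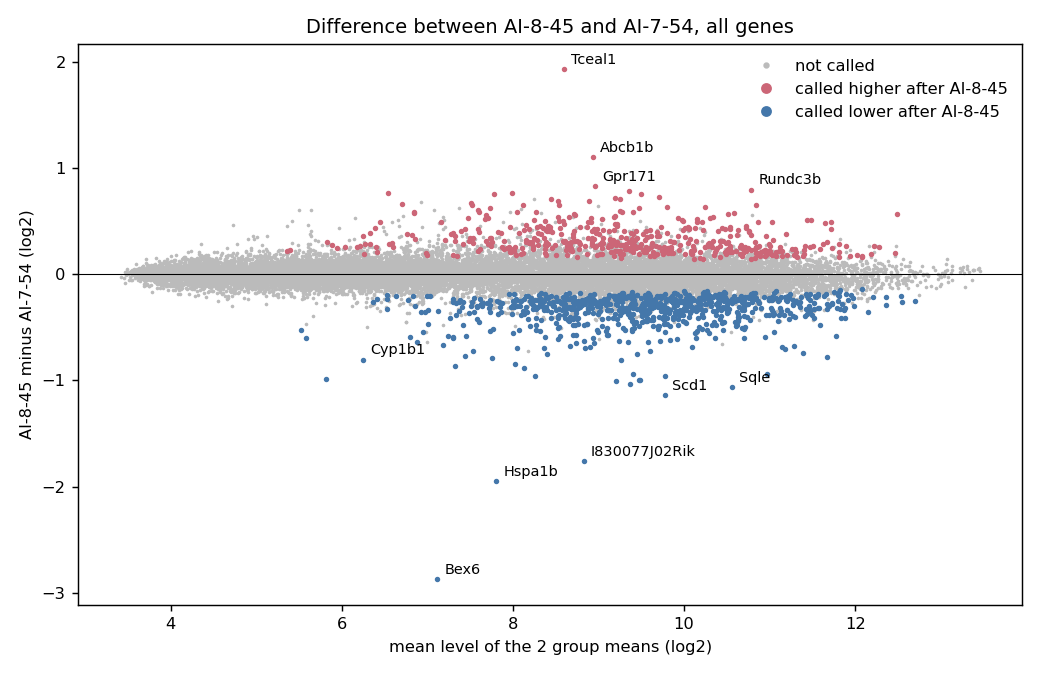
Each of the 22180 genes is a point, with the mean of its 2 group means (log2) on the horizontal axis and the log2 difference, AI-8-45 minus AI-7-54, on the vertical axis. The called genes are coloured, 473 above 0 and 782 below it, and Tceal1 (1.93) and Bex6 (-2.87) lie at the extremes.

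A second pattern crossed the compounds. Along the first principal component of the 7 arrays (37.9% of the variance) the compounds separated, and along the second (24.2%) replicates 1 and 2 stood on one side and replicates 3 and 4 on the other. What separates these sets is not in the labels. All 1255 genes were also called with the set as a term of the model. Within a set alone the tests were weak, with 2 calls among replicates 1 and 2, where AI-7-54 had 1 array, and 613 among replicates 3 and 4.

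The cells carried the markers of their label. All 9 measured T-lineage markers of 12 listed lay above the median gene, with a median level of 11.8, and their median stood at the 98.3rd percentile of all genes. Markers of B cells (median level 6.15), myeloid cells (5.95), red cells (6.17, 1 gene) and natural killer cells (5.44) were dim. Stromal and endothelial markers had a median of 7.48, with 4 of 5 above the median gene, and the highest was Pecam1, an adhesion molecule also found on leukocytes, at 11.3. In limma none of 9 B-cell, 12 myeloid, 5 red-cell, 13 stromal and 6 natural killer genes was called, against 5.66% of all genes. Among them 1, a B-cell gene, had an unadjusted p below 0.05. The array means of these markers overlapped between the compounds for each type. In bulk RNA, fewer cells of a kind and less RNA per cell cannot be told apart.

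The most coherent difference was in cholesterol synthesis, the pathway from acetyl-CoA through mevalonate, squalene and lanosterol to cholesterol. Of 20 listed enzymes 16 were measured, and 13 were called lower after AI-8-45, none higher, against 3.53% of all genes. All 16 differences were negative, with a median of -0.70. For 15 of the enzymes the 2 groups of arrays did not overlap, against 15.9% of all genes. Listed enzymes beyond these 16 were not analysed here. The count stayed between 13 and 14 whichever array was left out.

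The promoters of 3 of these genes are shown because the enzymes moved together and because the upstream bases carry elements that SREBP-2 is known to work with. They are the 250 bases before the start of the gene in RefSeq, build GRCm38.p6, with the sterol regulatory element TCACNCCAC and the CCAAT box in capitals, CCAAT reading ATTGG on the other strand. Hmgcs1 lies at chr13:119690101-119690350, plus strand, Mvk at chr5:114444019-114444268, plus strand, and Msmo1 at chr8:64733579-64733828, minus strand.
Hmgcs1: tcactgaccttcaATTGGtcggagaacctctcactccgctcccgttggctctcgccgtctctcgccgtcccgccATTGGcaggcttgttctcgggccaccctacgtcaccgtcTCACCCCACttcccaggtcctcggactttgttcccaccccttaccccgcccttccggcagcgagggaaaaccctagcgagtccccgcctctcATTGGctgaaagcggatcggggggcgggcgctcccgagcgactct
Mvk: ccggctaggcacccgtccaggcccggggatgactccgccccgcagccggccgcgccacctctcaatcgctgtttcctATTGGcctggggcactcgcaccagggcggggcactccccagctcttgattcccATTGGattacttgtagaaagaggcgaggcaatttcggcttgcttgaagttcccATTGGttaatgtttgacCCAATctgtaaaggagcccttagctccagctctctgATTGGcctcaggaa
Msmo1: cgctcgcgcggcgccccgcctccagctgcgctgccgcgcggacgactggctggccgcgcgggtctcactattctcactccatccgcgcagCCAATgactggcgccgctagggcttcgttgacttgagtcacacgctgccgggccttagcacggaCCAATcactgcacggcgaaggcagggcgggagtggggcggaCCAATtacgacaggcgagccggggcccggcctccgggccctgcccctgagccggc
Hmgcs1 held 1 sterol element of exactly these letters and 3 CCAAT boxes, Mvk 5 CCAAT boxes and Msmo1 3. Both strands were searched in windows from 250 bases before to 50 bases after the start, which RefSeq gave for 13 of the 16 enzymes. A gene with several windows counted once, if any of them held the letters, so such genes had more chances to match. A CCAAT box was found in all 13, against 41.6% of 16990 measured genes with a window, 49.7% of the 372 genes called higher and 45.9% of the 625 called lower. It was also found in 24 of 34 windows of DNA replication genes (70.6%), 8 of 12 of SREBP control (66.7%) and 11 of 17 of fatty acid synthesis (64.7%). The strict sterol element was found in 1 of the 13, Hmgcs1, against 1.43% of all.

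Hmgcs1, which makes HMG-CoA, read 11.56, 11.95 and 11.78 on the AI-7-54 arrays and 10.98, 10.95, 11.02 and 11.14 on the AI-8-45 arrays, a difference of -0.74 ± 0.11 (SE; limma adjusted p = 0.00171). All 4 AI-8-45 arrays were thus below all 3 AI-7-54 arrays. Mevalonate kinase, Mvk, read 8.72, 8.86 and 8.77 against 8.32, 8.33, 8.19 and 8.33, again without overlap (-0.49). The next kinase, Pmvk, was not called (-0.23, adjusted p = 0.0900, 95% interval -0.38 to -0.07). Mvd, which makes isopentenyl diphosphate, read 9.02 on each AI-7-54 array and 8.34 to 8.55 after AI-8-45 (-0.57). Farnesyl diphosphate synthase, Fdps, read 12.03, 12.06 and 12.06 against 11.40, 11.40, 11.04 and 11.27 (-0.78). It supplies both sterols and the lipid tails of prenylated proteins.

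Squalene synthase, Fdft1, read 11.36, 11.54 and 11.43 after AI-7-54 and 10.60, 10.49, 10.33 and 10.59 after AI-8-45, a difference of -0.94 (95% interval -1.12 to -0.76). Lanosterol synthase, Lss, which closes the sterol rings, read 9.70, 9.67 and 9.75 against 8.71, 8.85, 8.43 and 8.83 (95% interval of the difference -1.20 to -0.81). Squalene epoxidase (Sqle, -1.07), the enzyme between them, and lanosterol demethylase (Cyp51, -1.03) differed by a like amount. At these 4 enzymes the differences thus lay close to 1, with intervals that overlap. Nsdhl and Hsd17b7, which act with Msmo1 to strip methyl groups from the sterol, differed by -0.70 and -0.69. Nsdhl read 11.54, 11.55 and 11.51 against 10.91, 10.94, 10.57 and 10.91, and Hsd17b7 read 9.21, 9.31 and 9.21 against 8.53, 8.48, 8.52 and 8.69. In both, AI-8-45 was lower on every array.

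Dhcr7, Sc5d, Tm7sf2 and Ebp differed by less than Sqle, Lss and Cyp51, though no test compared the enzymes. Dhcr7, the last reductase of one branch, read 9.72, 9.65 and 9.64 against 9.18, 9.18, 9.16 and 9.10 (-0.51, adjusted p = 6.07e-05). The desaturase Sc5d read 10.84, 10.85 and 10.89 against 10.64, 10.52, 10.52 and 10.51 (-0.31). The sterol reductase Tm7sf2, which acts after Cyp51, was not called (-0.23, adjusted p = 0.0652). Ebp, the sterol isomerase, was the only measured member whose arrays overlapped: it read 9.51, 9.62 and 9.57 against 9.53, 9.43, 9.71 and 9.58, and the 95% interval of its difference ran from -0.15 to 0.13.

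**Figure D2:**
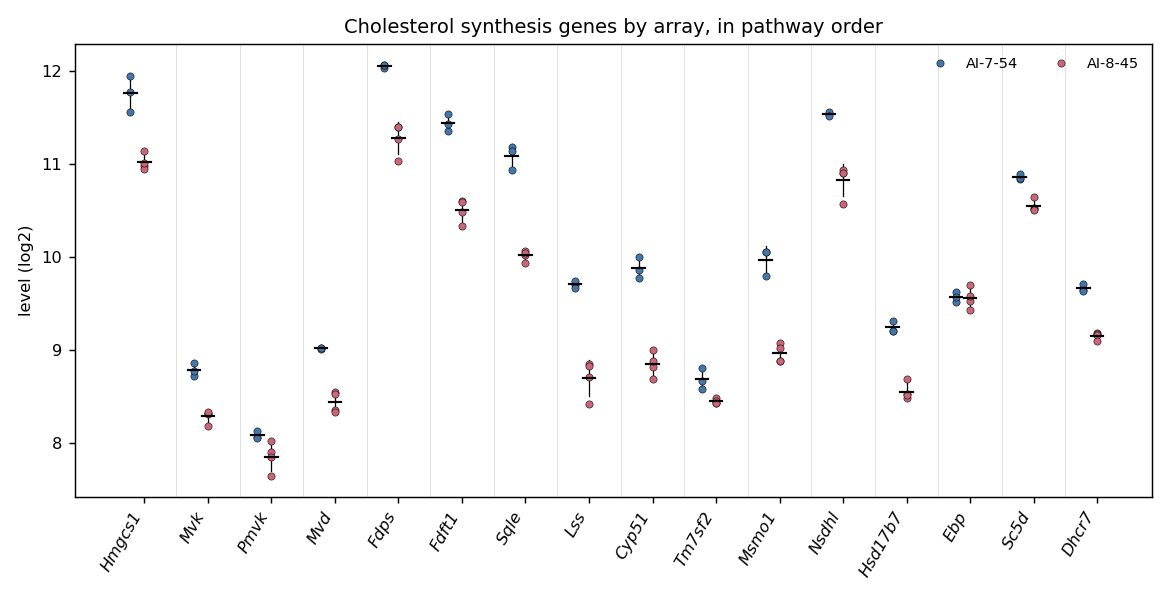
Log2 levels of cholesterol synthesis enzymes in pathway order, with a point for each array, a bar at the mean of each group and a vertical line for its SD (3 arrays of AI-7-54, 4 of AI-8-45). The groups are apart at nearly every enzyme, by 1.07 at Sqle, and they overlap at Ebp.

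Genes that control sterol balance split by their role. Of 14 measured, 4 were called lower and 2 higher, and the list's median was -0.07. Srebf2, which encodes SREBP-2, read 11.37, 11.43 and 11.47 against 11.11, 11.04, 11.03 and 11.06, a difference of -0.36 (adjusted p = 0.000686). Insig1, which holds the SREBP complex in the endoplasmic reticulum and is itself a SREBP target, read 11.37, 11.59 and 11.48 against 10.93, 10.86, 10.62 and 10.79 (-0.68). The sterol carrier Stard4 (-0.65) and Tmem97 (-0.45), a membrane protein that binds NPC1, were also lower, and none of these 4 overlapped between the groups. The partners of SREBP were close to equal: Scap differed by -0.09, Insig2 by 0.09 and Mbtps1 by 0.03, none called. Srebf1, which encodes SREBP-1, differed by -0.09 and was not called either. Rnf145, a sterol-responsive ubiquitin ligase, was higher (0.43), a call that ended without AI-7-54 replicate 1 (adjusted p = 0.0508). Npc1, which carries sterol out of lysosomes, was higher by 0.20, a call that ended without AI-7-54 replicate 3 or 4 or AI-8-45 replicate 1, 3 or 4 (adjusted p up to 0.135), and its other probe set differed by 0.02.

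The exporter Abcg1 went the other way. Abcg1, a pump that hands cholesterol to lipoproteins and a target of the LXR receptors, read 8.86, 8.80 and 8.84 after AI-7-54 and 9.57, 9.45, 9.56 and 9.64 after AI-8-45. The groups were well apart, by 0.72 ± 0.05 (SE), or 1.65-fold (adjusted p = 2.79e-05). Abca1, the related exporter, was higher by 0.29 (adjusted p = 0.0150), a call that ended without AI-7-54 replicate 3 or 4 (up to 0.0862), so that the list's 2 calls among 7 genes became 1. The LXR gene Nr1h3 (0.11) and 2 further members, Lpcat3 (0.08) and Abca7 (0.13), were not called. Apoe, the lipoprotein that takes up exported sterol, differed by -0.31 without overlap and was not called either (adjusted p = 0.0699, 95% interval -0.51 to -0.11). The list's median was 0.11.

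Fatty acid genes followed the sterol enzymes. Of 21 measured, 9 were called lower and none higher, 19 differences were negative, and the median was -0.17. Scd1, which puts the double bond into stearate, read 10.26, 10.41 and 10.36 against 9.51, 9.39, 8.87 and 9.05 (-1.14, 95% interval -1.43 to -0.85). The lipase gene Lipg read 10.33, 10.25 and 10.20 against 9.70, 9.49, 8.87 and 9.14 (-0.96). Both were lower on every AI-8-45 array, and lowest on its replicate 3. Fatty acid synthase, Fasn, read 12.07, 12.03 and 12.03 against 11.65, 11.62, 11.63 and 11.63, a smaller difference (-0.41) with a narrow interval (-0.49 to -0.33). Acetyl-CoA carboxylase (Acaca, -0.41), acetoacetyl-CoA synthetase (Aacs, -0.64) and the desaturase Fads2 (-0.29) were lower as well. The elongase Elovl6 (-0.43) lost its call without AI-7-54 replicate 4 (adjusted p = 0.0517), and citrate lyase Acly (-0.28) and the citrate carrier Slc25a1 (-0.31) lost theirs without its replicate 3 or 4 (up to 0.0826 and 0.0703). Outside the list, Mfsd2a, a carrier of lysolipids, read 8.61, 8.33 and 8.39 against 7.73, 7.70, 7.51 and 7.47 (-0.84), and Idh1, a cytosolic source of NADPH, read 10.38, 10.53 and 10.39 against 9.82, 9.85, 9.56 and 9.78 (-0.68).

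Ribosome biogenesis held more called genes than any of the other lists. Of 53 measured assembly factors, 42 were called lower after AI-8-45 and none higher, against 3.53% and 2.13% of all genes. Of the differences 52 were negative, and the median was -0.37. The count of calls was 32 without AI-7-54 replicate 3, 35 without its replicate 4 and 40 to 42 without any other array. The median was -0.30 in replicates 1 and 2 and -0.40 in replicates 3 and 4. Rrp12, which exports pre-ribosomes, read 9.08, 8.99 and 8.93 against 8.46, 8.39, 8.25 and 8.19 (-0.68). Bysl, needed for the small subunit, read 9.25, 9.29 and 9.29 against 8.69, 8.71, 8.61 and 8.49 (-0.65). Nop2, an rRNA methyltransferase, read 11.24, 11.27 and 11.22 against 10.70, 10.68, 10.52 and 10.71 (-0.59, adjusted p = 6.07e-05). None of the 3 overlapped. The small-subunit factor Utp20 (-0.53), the histone-binding factor Grwd1 (-0.53), and the nucleolar protein Lyar (-0.62) were lower. The 1 member without a negative difference was the abundant nucleolar chaperone Npm1 (0.03, 95% interval -0.09 to 0.14), and its other probe set differed by -0.19.

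The polymerases that transcribe rRNA and tRNA were lower in part. Of 26 subunits and factors of RNA polymerases I and III, 5 were called lower and the median was -0.07. The second largest subunit of polymerase I, Polr1b, read 10.07, 10.02 and 10.01 against 9.51, 9.43, 9.18 and 9.47 (-0.63), without overlap, and its largest subunit, Polr1a, differed by -0.47. The other calls were polymerase III subunits: Polr3d (-0.44), Polr3e (-0.42) and Polr3g (-0.33).

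The finished ribosome's own proteins were not lower as a group. Their 59 cytosolic genes had a median difference of 0.00, with 28 negative. Of the 59, 3 were called lower (5.08%, against 3.53% of all genes) and none higher. The 3 were Rpl30 (-0.35), Rps14 (-0.31) and Rpl5 (-0.25), and none of the 59 was called without AI-7-54 replicate 3 and 1, Rpl30, without its replicate 4. Rpl5 also lost its call without AI-7-54 replicate 1 or AI-8-45 replicate 2 or 3 (adjusted p up to 0.101). At an unadjusted p below 0.05 there were 10 of the 59. These genes have many pseudogene copies, and probes may read more than 1 of them. Among mitochondrial ribosomal proteins, 19 of 69 were called, all lower, 61 differences were negative, and the median was -0.16. That count was 5 without AI-7-54 replicate 3 or 4 and 9 without AI-8-45 replicate 2. Mrpl12 read 9.31, 9.35 and 9.30 against 8.98, 8.89, 8.84 and 8.94 (-0.41), while its other probe set differed by -0.10, and Mrps18b differed by -0.40. Both calls held whichever array was left out.

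Genes that bring proteins into mitochondria were lower in 11 of 22 cases (median -0.20, 21 negative), a count of 3 without AI-7-54 replicate 3, 4 without its replicate 4 and 7 without AI-8-45 replicate 1 or 3. Timm23, the channel of the inner membrane, read 11.95 to 12.01 on the 3 AI-7-54 arrays against 11.72, 11.72, 11.48 and 11.72 (-0.33), and its small chaperone Timm10 differed by -0.31. Of the nuclear-encoded genes of oxidative phosphorylation, 6 of 68 were called, all lower (median -0.10), and 3 without AI-7-54 replicate 3. The complex III subunit Uqcrq differed most, reading 8.90, 8.77 and 8.66 against 8.36, 8.25, 8.27 and 8.22 (-0.50). Cytochrome c, Cycs, differed by -0.41. No gene of 28 in glycolysis and the hypoxia response was called in limma and 5 had an unadjusted p below 0.05 (median 0.00). There was 1 call without AI-7-54 replicate 4 or AI-8-45 replicate 3. With 5.66% of all genes called, the lack of a call does not set these 28 apart.

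**Figure D3:**
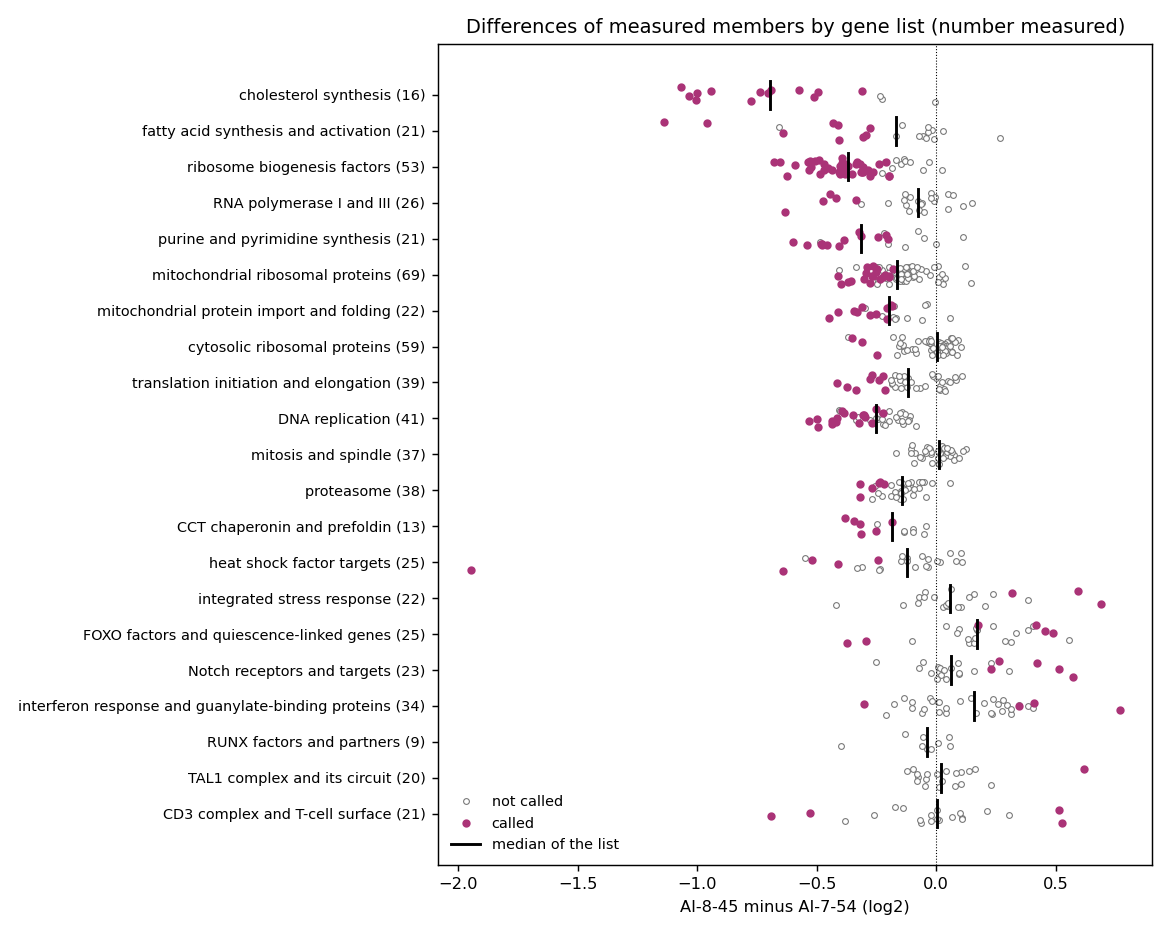
Each point is the log2 difference, AI-8-45 minus AI-7-54, of 1 measured gene of 21 lists, filled where called, with a black bar at the median of the list and the number measured in parentheses. The medians of cholesterol synthesis (-0.70) and ribosome biogenesis (-0.37) lie farthest below 0, and those of mitosis (0.01) and cytosolic ribosomal proteins (0.00) sit near it.

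Nucleotide synthesis moved with ribosome assembly. Of 21 measured enzymes of the purine and pyrimidine routes, 13 were called lower and none higher (median -0.32). Cad, which carries out the first steps of pyrimidine synthesis, read 10.61, 10.67 and 10.68 against 10.05, 10.03, 10.05 and 10.11 (-0.60, adjusted p = 2.79e-05). Umps, which finishes UMP, read 10.12, 10.21 and 10.19 against 9.67, 9.71, 9.55 and 9.84 (-0.48). In the purine route, Atic read 11.82, 11.83 and 11.82 against 11.37, 11.36, 11.29 and 11.35 (-0.48). Its first enzyme, Ppat, differed by -0.48, also without overlap. Gart differed by -0.54 at its brightest probe set, while its 3 probe sets ranged from -0.54 to 0.01. The folate enzymes that feed these routes were lower too: Mthfd1 read 10.92, 11.04 and 11.04 against 10.36, 10.37, 10.41 and 10.46 (-0.60), and Shmt1 read 10.32, 10.53 and 10.47 against 9.81, 9.78, 9.91 and 9.88 (-0.60). Their list of serine and one-carbon genes had 4 calls of 16, all lower (median -0.12), and 2 without any single AI-7-54 or AI-8-45 array or AI-9-54 replicate 1.

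Polyamine synthesis was lower at 1 step. Spermidine synthase, Srm, read 11.63, 11.67 and 11.57 against 10.99, 10.96, 10.79 and 11.05 (-0.67, adjusted p = 5.51e-05). Odc1, the enzyme that makes putrescine and a known MYC target, overlapped, reading 9.81, 9.94 and 9.94 against 9.71, 9.91, 9.85 and 10.01, with a 95% interval of -0.17 to 0.11. Myc itself read 12.15, 11.91 and 11.96 against 12.05, 11.93, 11.89 and 11.84, and its interval ran from -0.31 to 0.16. Of 10 polyamine genes, 2 were called, and 1 without AI-7-54 replicate 3 or 4 or AI-8-45 replicate 2, and Dhps (-0.27), which modifies eIF5A, lost its call without any single AI-7-54 array or AI-8-45 replicate 2 or 3 (adjusted p up to 0.0970).

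DNA replication genes were lower as a group, while genes of mitosis were not. All 41 measured replication genes had a negative difference (median -0.25), and 17 were called lower. That count was 7 without AI-7-54 replicate 3, 9 without its replicate 4, and 10 and 11 without AI-8-45 replicates 2 and 3. Cdc6, which loads the replicative helicase, read 10.28, 10.55 and 10.42 against 9.79, 9.69, 9.95 and 10.10 (-0.53). The DNA polymerase subunits Pold2, at 11.01, 10.98 and 10.88 against 10.47, 10.42, 10.38 and 10.56 (-0.50), and Pole2 (-0.49) did not overlap either. Chaf1b, which places histones on new DNA, differed by -0.42, and Uhrf1, which guides maintenance DNA methylation, by -0.44. Outside the list, Ung, which removes uracil from DNA, read 8.78, 8.75 and 8.60 against 8.15, 7.94, 8.00 and 7.96 (-0.70). Of 37 genes of mitosis and the spindle, none was called in limma and none had an unadjusted p below 0.05. For none did the arrays separate, against 15.9% of all genes, and their median was 0.01. With 5.66% of all genes called, the lack of a call among 37 does not set them apart. Of 26 genes of the G1 cyclins, their kinases and the E2F factors, 5 were called lower and 1 higher (median -0.04). The factors E2f1 (-0.45) and E2f4 (-0.32) were among the lower, and the higher gene was Rbl2 (0.26), a pocket protein that holds E2F targets down.

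A group linked to quiescence was higher in part. Of 25 FOXO-linked genes, 4 were called higher and 2 lower, against 2.13% and 3.53% of all genes. Of the differences 3 were negative, and the median was 0.17. The count of calls was 4 in all without AI-7-54 replicate 3 or 4 or AI-8-45 replicate 1 or 4. Sesn3, which restrains mTORC1, read 10.70, 10.59 and 10.58 against 11.12, 11.11, 11.10 and 11.13 (0.49). The antiproliferative genes Btg1 (0.45) and Btg2 (0.42) were higher, and neither overlapped. The factor Klf6 was lower (-0.37), reading 10.02 ± 0.12 (SD, n = 4) after AI-8-45 and 10.40 ± 0.07 (SD, n = 3) after AI-7-54. The death gene Bcl2l11, which encodes BIM, was higher by 0.29. It was the only 1 of 16 BCL2-family genes called, a share near the 5.66% of all genes.

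Among stress genes, the inducible heat shock genes were the farthest apart. Hspa1b read 8.85, 9.05 and 8.43 after AI-7-54 and 7.07, 6.89, 6.77 and 6.59 after AI-8-45 (-1.95, 95% interval -2.28 to -1.62). Its near-identical neighbour Hspa1a read 7.52, 7.02 and 7.05 against 6.62, 6.69, 6.40 and 6.52 (-0.64), and probes for the pair may read both. Fkbp4, a cochaperone of HSP90, read 10.85, 11.06 and 10.96 against 10.39, 10.31, 10.48 and 10.57 (-0.52). The list as a whole was less moved: 5 of 25 were lower (median -0.12), and 3 without AI-7-54 replicate 3 or 4. The 13 genes of the CCT ring and prefoldin, which fold actin and tubulin, were all negative (median -0.19). There 6 were called, 1 without AI-7-54 replicate 3 and 2 without its replicate 4, and Cct6a (-0.31) was called in every case.

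The endoplasmic reticulum showed both directions. Eif2ak3, which encodes the stress kinase PERK, read 10.34, 10.22 and 10.34 against 10.90, 10.90, 10.80 and 10.90 (0.57, adjusted p = 8.43e-05). All 4 AI-8-45 arrays were above the AI-7-54 arrays. The chaperone Hyou1 was lower (-0.34). Of 27 genes of this compartment, 1 was called higher and 4 lower (median -0.07), 2 in all without AI-7-54 replicate 3 or 4 or AI-8-45 replicate 2 and 3 without replicate 1 of either compound. Ddit3, which encodes CHOP, read 9.07, 8.90 and 8.90 against 9.66, 9.61, 9.53 and 9.39 (0.59), but its call (adjusted p = 0.0445) ended without any single array of the 7 (up to 0.171). Of 22 genes of the integrated stress response 3 were called higher, against 2.13% of all genes, and at most 1 without any of the 7 arrays. None of 15 amino acid transporters was called in limma, too few to set against the 5.66% of all genes. Of these 15, 1 had an unadjusted p below 0.05 (median 0.06). Proteasome genes were lower by little: 6 of 38 called, 37 negative, median -0.14. That count was 1 without AI-7-54 replicate 3 or 4 and 3 without AI-8-45 replicate 1 or 2, and Psmc5 (-0.32) was called in every case.

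Metal and drug-response genes gave single differences. The metallothioneins Mt2 (10.06, 9.87 and 9.78 against 10.45, 10.39, 10.33 and 10.39) and Mt1 bind zinc and copper, and they were higher by 0.49 and 0.40. The zinc importer Slc39a10 was lower, at 9.11, 9.20 and 9.27 against 8.48, 8.37, 8.55 and 8.60 (-0.69). Thus a zinc-binding pair and a zinc importer moved in opposite directions, while the median of the 15 genes in their list was -0.04. Cyp1b1, a target of the aryl hydrocarbon receptor, read 6.80, 6.49 and 6.67 against 5.90, 5.82, 5.82 and 5.86 (-0.80). It was dim throughout, and none of the other 7 genes of its list was called.

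Few genes of the inhibitors' named target and its circuit were called between the compounds, as was so over all genes (5.66%). Of 9 RUNX factors and partners none was called in limma, 1 had an unadjusted p below 0.05, and the median was -0.04. With 9 genes, the lack of a call does not set them apart from that share. Runx1 read 12.04, 11.79 and 11.79 after AI-7-54 and 11.95, 11.94, 11.70 and 11.75 after AI-8-45. The groups overlapped, and the 95% interval of the difference was -0.24 to 0.16. Runx3 differed by -0.13 (-0.30 to 0.04) and Cbfb by -0.06 (-0.14 to 0.03), so for these 3 genes a difference beyond 0.30 in either direction lies outside the interval. The corepressor Cbfa2t3 was less settled, at -0.40 with an interval of -0.76 to -0.04 (adjusted p = 0.235). It read 9.39, 9.74 and 9.88 against 9.09, 8.94, 9.64 and 9.42, with replicate 1 the lowest of AI-7-54 and replicates 1 and 2 the lowest of AI-8-45. These are RNA levels, and the binding of RUNX proteins was not measured.

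The TAL1 circuit gave 1 call among 20 genes, a share near the 5.66% of all genes, and a median of 0.02. At an unadjusted p below 0.05 there were 5, and for 5 of the 20 the arrays did not overlap, against 15.9% of all genes. Tal1, which the transgene also supplies, read 8.22, 8.49 and 8.24 against 8.23, 8.26, 8.24 and 8.22, with an interval of -0.23 to 0.07. Lyl1 (-0.24 to 0.16), Lmo2 (-0.08 to 0.16) and Gata3 (-0.34 to 0.09) were not called. Myb read 12.65, 12.63 and 12.63 against 12.54, 12.55, 12.50 and 12.56. Its arrays did not overlap, but a difference of -0.10 was not called (adjusted p = 0.192). The called gene was Arid5b, a chromatin factor that TAL1 is known to activate in T-ALL, at 9.12, 9.14 and 9.23 against 9.73, 9.65, 9.82 and 9.93 (0.62, adjusted p = 0.00202).

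No E protein was called, and 1 of their inhibitors was, in a list of 7 genes too short to set against the 5.66% of all genes. Tcf12, heterozygous in this line, read 12.20, 12.21 and 12.22 against 12.32, 12.31, 12.31 and 12.32. The groups were apart by 0.10, without a call (adjusted p = 0.191), and Tcf3 differed by 0.01 (-0.09 to 0.12). Id2, which blocks E proteins from DNA, read 11.53, 11.43 and 11.46 against 12.02, 12.02, 11.89 and 11.93, all 4 arrays higher (0.49, adjusted p = 0.000194). Its relative Id3 overlapped widely, at 8.16, 8.83 and 8.67 against 7.87, 7.72, 8.43 and 8.60, with an interval of -0.94 to 0.15.

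**Figure D4:**
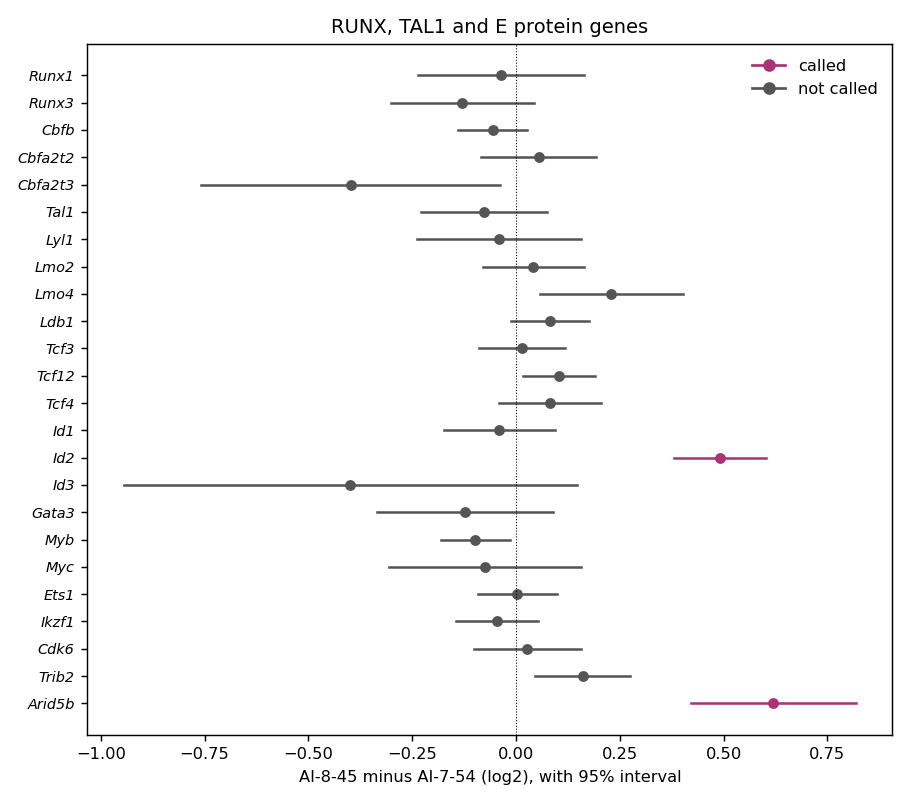
Log2 difference, AI-8-45 minus AI-7-54, of RUNX, TAL1-circuit and E-protein genes, with a point for the estimate and a horizontal line for the 95% interval from limma. Arid5b (0.62) and Id2 (0.49) are the called genes, while most other intervals cross 0 and are narrow, such as -0.24 to 0.16 for Runx1.

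The core RUNX site, TGTGGT on either strand, was as common near genes that differed as near others. Among genes with a window, it was found in 15.9% of the 372 called higher, 16.2% of the 625 called lower and 16.6% of all 16990. The E-box CACGTG, which MYC and its partners bind, was found in 16.8% of these genes called lower, 12.1% of those called higher and 9.19% of all. It was found in 10 of 48 ribosome biogenesis genes (20.8%). Like shares were found in SREBP control (3 of 12 genes) and cholesterol synthesis (3 of 13). Nucleotide synthesis (4 of 20) and DNA replication (6 of 34) were near them. The share was lower in fatty acid synthesis (2 of 17, 11.8%), the TAL1 circuit (2 of 16, 12.5%) and T-cell surface genes (0 of 11). A match of letters is a description of the window, not a bound site.

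Notch genes were higher where they were called. Jag1, a Notch ligand and target, read 9.89, 9.64 and 9.65 against 10.37, 10.27, 10.06 and 10.25 (0.51). Of 23 genes in the list 5 were called higher and none lower (median 0.06), but the count was 1 without AI-7-54 replicate 3, 2 without its replicate 4 and 3 without AI-8-45 replicate 3 or 4. The target Hey1 (0.57) was among those that lost the call without AI-7-54 replicate 3 or 4 (adjusted p up to 0.0776), and its groups just overlapped, with 8.73 after AI-7-54 and 8.72 after AI-8-45.

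T-cell surface genes went both ways. Of 21, 2 were called higher and 2 lower (median 0.00). Ctla4, a brake on T-cell activation, read 8.63, 8.65 and 8.66 against 9.21, 9.12, 9.13 and 9.23 (0.53), and Cd7, an early T-lineage marker, read 11.22 on each AI-7-54 array against 11.80, 11.62, 11.79 and 11.75 (0.51). Cd5 and Cd6, related receptors that damp signals from the T-cell receptor, were the lower ones. Cd5 read 8.72, 8.31 and 8.16 against 7.90, 7.95, 7.50 and 7.47 (-0.69), a call that ended without AI-7-54 replicate 1 (adjusted p = 0.0532), and Cd6 read 8.59, 8.27 and 8.15 against 7.95, 7.88, 7.67 and 7.73 (-0.53). In both genes replicate 1 of AI-7-54 was the highest array.

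In signalling from the receptor, Blk stood out among 18 genes. Blk, a Src-family kinase of B cells and immature T cells, read 10.09, 9.78 and 9.75 against 9.02, 8.91, 8.88 and 8.91 (-0.94, 95% interval -1.20 to -0.69). The kinase Prkcq, which carries the receptor's signal on to NF-kB, was higher by 0.26. The list had 4 calls, and 2 without AI-7-54 replicate 3 or 4 or AI-8-45 replicate 1. Among other immune genes, the perforin gene Prf1 (0.45) and the granule gene Nkg7 (0.28) were higher of 12 cytotoxic genes. The NF-kB inhibitor Nfkbie was lower, at 10.77, 10.85 and 10.83 against 10.41, 10.34, 10.33 and 10.39 (-0.45), while Bcl3 was higher (0.38). Batf, an AP-1 factor, was lower (-0.45), and Jak2 was higher by 0.21. Jak2 was the only call of 23 in the IL-7 and JAK-STAT list, a share near the 5.66% of all genes.

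Of 34 interferon-linked genes, 3 were called higher, against 2.13% of all genes, and 1 lower. The median was 0.16, with 10 negative differences, and it was 0.14 in replicates 1 and 2 and 0.09 in replicates 3 and 4. Gbp4, a guanylate-binding protein, read 7.83, 7.60 and 7.37 against 8.53, 8.34, 8.29 and 8.31 (0.77), and the RNA sensor gene Ddx58 (0.41) and Irf9 (0.35) followed. The count was 9 without AI-7-54 replicate 1 or AI-8-45 replicate 3. Among homing and chemokine receptors, 1 of 19 was higher and 2 lower. The orphan receptor Gpr171 read 8.46, 8.62 and 8.56 against 9.37, 9.31, 9.33 and 9.51 (0.83), while its other probe set differed by 0.27. Ccr8, a chemokine receptor, was lower, at 10.17, 9.86 and 9.84 against 9.48, 9.22, 9.13 and 9.14 (-0.72).

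The gene with the smallest p belonged to a family of mostly dim genes. Tceal1, which encodes a small nuclear protein similar to an elongation factor, read 7.58, 7.70 and 7.62 after AI-7-54 and 9.56, 9.51, 9.70 and 9.48 after AI-8-45. The groups were 3.81-fold apart (1.93, 95% interval 1.80 to 2.06, adjusted p = 1.03e-08). Of 12 measured Tceal and Bex genes, the other called gene was Bex6, and it went the other way. Bex6 read 8.89, 8.52 and 8.24 against 6.16, 5.94, 5.35 and 5.24 (-2.87, 95% interval -3.33 to -2.42). The remaining 10 lay between -0.06 and 0.09. Except for Bex3 and Tceal9, these 10 read below 6.91, the level of the median gene, so their small differences say little.

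The promoter of Bex6 is shown because it was the largest difference of the comparison and because its 250 upstream bases held the RUNX letters, here sharing bases with a CCAAT box. Capitals mark the merged CCAAT and TGTGGT letters. It lies at chr16:32179550-32179799, plus strand, in RefSeq GRCm38.p6.
Bex6: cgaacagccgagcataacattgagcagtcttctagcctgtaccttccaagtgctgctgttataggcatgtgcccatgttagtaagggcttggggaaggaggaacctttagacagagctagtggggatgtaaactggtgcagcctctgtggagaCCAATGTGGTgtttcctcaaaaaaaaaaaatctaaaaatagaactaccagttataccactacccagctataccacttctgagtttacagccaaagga
As above, 16.6% of genes with a window hold the RUNX letters, so 1 match says nothing of binding.

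Abcb1b, a multidrug efflux pump, was higher together with genes beside it. It read 8.54, 8.38 and 8.22 against 9.59, 9.53, 9.30 and 9.50 (1.10 ± 0.08 SE, or 2.15-fold). Rundc3b read 10.34, 10.45 and 10.36 against 11.20, 11.17, 11.19 and 11.16 (0.80, adjusted p = 1.93e-05). In RefSeq's order the genes from Slc25a40 to Crot, which hold Rundc3b, Abcb1a, Abcb1b and Abcb4 between them, were all higher. Slc25a40 (0.41, adjusted p = 0.0817) and Abcb1a (0.26, adjusted p = 0.0732) were not called. Crot was called (0.31, adjusted p = 0.00147), at 9.74, 9.73 and 9.68 against 10.04, 9.96, 10.02 and 10.08, and so was Abcb4 (0.36), though not without AI-7-54 replicate 4 (adjusted p = 0.0509). Outside this run the difference was 0.05 for Dbf4 on one side, and 0.19 for Tmem243 and 0.09 for Dmtf1 on the other, none called. Abcb1a and Abcb1b are close paralogs, and their probes may share signal. The list of multidrug transporters, which holds Rundc3b as a neighbour, had 11 genes: 3 transporters and Rundc3b were called higher and Abcc4 (-0.34) lower, 3 in all without AI-7-54 replicate 4.

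In the other lists, genes of protein and RNA synthesis were lower where they were called. Splicing factors had 8 of 35 lower (median -0.14), translation factors 8 of 39 (-0.12) and cytosolic tRNA synthetases 6 of 18 (-0.14), and none higher. The splicing component Snrpa1 (-0.35), the initiation factor subunit Eif2b3 (-0.37) and the tryptophan synthetase Wars (-0.33) were called whichever array was left out. These counts leaned on replicates 3 and 4 of AI-7-54. Without its replicate 3 they were 2, 2 and 2, and without its replicate 4 they were 2, 3 and 3, with 5 splicing factors without AI-8-45 replicate 1. The citric acid cycle list had 4 of 20 lower (-0.11), 2 without AI-7-54 replicate 3 and 1 without its replicate 4. Of 10 V(D)J recombination and end joining genes, too few to set against the 5.66% of all genes, the ligase Lig4 alone was called (-0.29). Of 21 T-lineage transcription factors 2 were higher and 2 lower. Sox13 (-0.40) and Ets2 (-0.35) were the lower ones, and that count was 2 in all without AI-7-54 replicate 3 or AI-8-45 replicate 2, 3 or 4. No glucocorticoid receptor target of 10 was called in limma, too few to set against the 5.66% of all genes. Of these 10, 1 had an unadjusted p below 0.05, with 1 call without AI-7-54 replicate 1.

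Of the other large differences, several fell in no list. Nr2f1, an orphan nuclear receptor, read 8.02, 8.14 and 8.10 against 8.80, 8.72, 8.79 and 8.86 (0.71), and the zinc finger gene Zfp563 read 8.92, 9.07 and 8.91 against 9.82, 9.80, 9.66 and 9.74 (0.79). Nav2 (0.73), P2ry10 (0.65), a lipid receptor of lymphocytes, and the protease gene Adamts6 (0.65) were higher as well. Strip2 read 8.38, 8.69 and 8.64 against 7.50, 7.74, 7.61 and 7.90 (-0.89), and Lsmem1 read 9.01, 8.52 and 8.67 against 7.91, 7.84, 7.66 and 7.70 (-0.96). I830077J02Rik, named after its values were seen because it was among the 10 called genes past 2-fold, varied more than any other of them. It read 10.17, 9.43 and 9.52 against 8.60, 8.49, 7.17 and 7.51 (-1.76, 95% interval -2.51 to -1.01), with replicates 3 and 4 the lowest after AI-8-45.

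**Figure D5:**
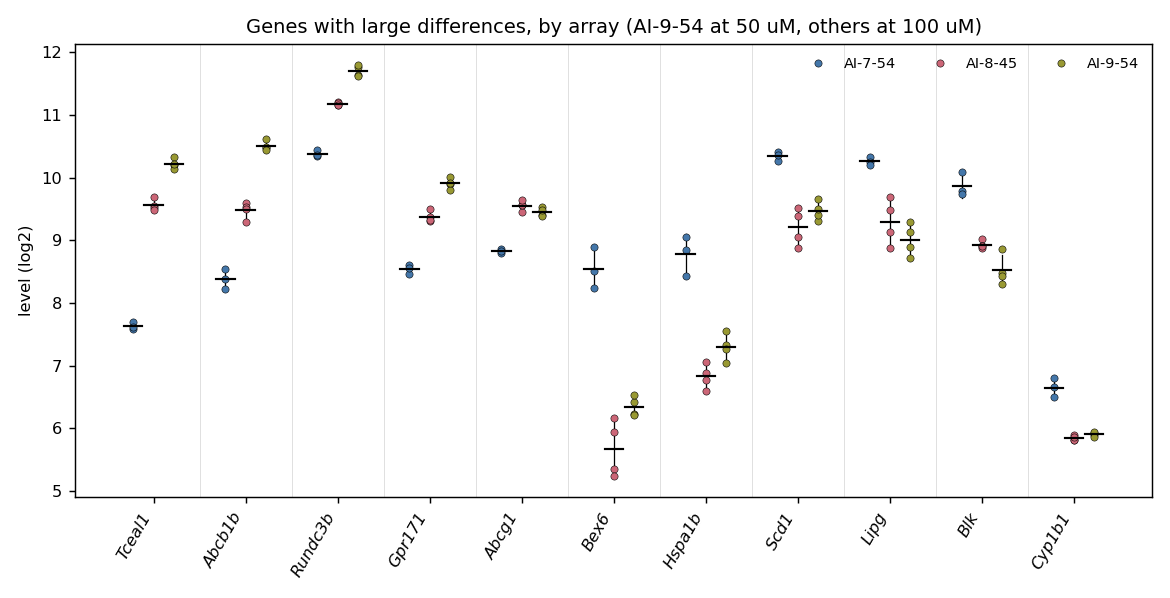
Log2 levels of 11 single genes on every array, with the 3 compounds side by side, a point for each array, a bar at the mean and a vertical line for the SD. AI-8-45 stands above AI-7-54 at Tceal1, Abcb1b, Rundc3b, Gpr171 and Abcg1 and below it at Bex6, Hspa1b, Scd1, Lipg, Blk and Cyp1b1, and AI-9-54 was given at 50 µM, a different dose.

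The AI-9-54 arrays differ in dose and are given beside these values without comparison. At 50 µM, Tceal1 read 10.21, 10.32, 10.14 and 10.22, Abcb1b read 10.48, 10.62, 10.49 and 10.44, and Bex6 read 6.42, 6.53, 6.23 and 6.22. Sqle, at 10.94, 11.18 and 11.14 after AI-7-54 and 10.07, 10.03, 9.94 and 10.05 after AI-8-45, read 9.71, 9.70, 9.86 and 9.93 after AI-9-54 at 50 µM.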

How the data were processed

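The authors deposited log2 expression values from Affymetrix GeneChip whole-transcript arrays, made with RMA in Partek 6.6 per the submitters' processing notes. RMA subtracts background, sets all arrays to one distribution and summarises probes, so a shift of all genes at once cannot be seen, and no detection calls come with the values. RNA was isolated with RNeasy and amplified with the Ambion WT kit per the labels. The annotation build of the array is not given in the sources used here. Of 41345 probe sets, 23521 carry 1 gene symbol, 1814 several and 16010 none; genes with several probe sets were read from the brightest, which gave 22180 genes, all tested without a filter on low values.

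One linear model over all 11 arrays was fitted with limma 3.58.1 (R 4.3.3) on the deposited log2 values, with empirical Bayes moderation and 8 residual degrees of freedom. Benjamini-Hochberg adjustment ran over all 22180 genes, and genes below 0.05 were called. Errors are standard errors and intervals are 95%; with 3 and 4 arrays, precision is set by their number. The fit was tested on simulated data. Alternatives were scalings, filters on dim genes, probe set rules, array weights, a replicate block, a replicate set factor and leaving out each array.

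The members and the 58 gene lists were chosen with earlier results of these data known. Named genes are the 15 largest called differences in each direction without overlap, the 10 smallest p, up to 6 called genes per direction of each list, and all members of the sterol, RUNX, TAL1, E-protein, transporter, Tceal, polyamine and MYC lists; clone symbols were left out. Npm1, Ung, Fads2, Acly, Slc25a1, Pecam1, the neighbours of Abcb1b and I830077J02Rik, and in the closing section Rpp40, Trmt61a, Snord52 and the Ypel genes, were named after their values were seen. Promoter letters come from RefSeq, build GRCm38.p6. Figures were drawn with Python 3.11.15 and matplotlib 3.10.9.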

Additional observations from a re-analysis of the deposited data

Results flagged for a closer look

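Among the 167 named genes, 12 had 1 of the 4 AI-8-45 arrays farther from the others than Dixon's test allows, and chance alone flags about 1 in 20 groups. In 8 of the 12 the array apart was the lowest and was replicate 3: Eif2ak3 at 10.80 against 10.90 for its nearest neighbour, Hey1 at 8.72 against 9.08, Lpcat3 at 10.77 against 10.85, Mbtps1 at 10.73 against 10.76, Mvk at 8.19 against 8.32, Nop2 at 10.52 against 10.68, Nsdhl at 10.57 against 10.91, and Timm23 at 11.48 against 11.72. Replicate 4 was the highest at Chaf1b, 10.32 against 10.19, and the lowest at Trmt61a, 8.31 against 8.57. Replicate 1 was the highest at Sc5d, 10.64 against 10.52, and replicate 2 the lowest at Tmem243, 8.37 against 8.52. Without AI-8-45 replicate 3 there were 1029 called genes, 943 of them among the 1255. Without it 13 of 16 cholesterol enzymes and 42 of 53 ribosome biogenesis factors were called.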

How the results depend on the processing

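The count of 1255 called genes moved by more than 1.5 times in few settings. It was 1949 with the replicate set as a factor, 2 among replicates 1 and 2, 613 among replicates 3 and 4, and 540 to 1229 when each array was left out in turn, lowest without AI-7-54 replicate 3. Elsewhere it was 1067 with each array centred on its median, 1318 after another quantile normalization, 1688 among genes above the median level, 1825 with array weights, 1333 with an intensity trend and 1026 of 41345 probe sets. Centring took the share of higher calls from 37.7% to 29.3%, with a shift of -0.02 between the groups. Whether replicate numbers pair the arrays was not settled. Correlations of same-numbered deviations between AI-7-54 and AI-8-45 were 0.45, 0.07 and -0.02, and those with AI-9-54 ran from 0.07 to 0.36. Differently numbered AI-7-54 and AI-8-45 arrays of the same set gave 0.16 to 0.31, so pairing by number cannot be told from the set. With the replicate number as a block there were 1408 calls. Of the 135 called genes that are named, all 135 were called with the block, 134 after centring, 133 with the mean of a gene's probe sets, 123 without AI-7-54 replicate 3, 122 without its replicate 4, 113 among replicates 3 and 4, and 2 among replicates 1 and 2. No called difference changed sign where it was called again. Depth in counts does not apply to arrays, and dim genes such as Cyp1b1 and Bex6 after AI-8-45 may be compressed towards background, which was not tested.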

Other observations

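Some groups outside the lists, chosen after their values were seen, held lower calls above the 3.53% of all genes. Of 81 small nucleolar RNAs, which guide rRNA modification, 13 were called lower and none higher (median -0.05). Snord52 read 7.83, 7.70 and 7.72 after AI-7-54 and 6.98, 6.86, 6.71 and 7.01 after AI-8-45, a difference of -0.86. Of 36 genes with Rpp, Pop, Trmt, Pus or Nsun symbols, which process or modify RNA, 11 were lower and 1 higher (median -0.17). Rpp40, a subunit of ribonuclease P, read 7.87, 7.97 and 7.85 against 7.34, 7.22, 7.01 and 7.12 (-0.72), and the tRNA methyltransferase gene Trmt61a differed by -0.62.

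Of the 5 Ypel genes, small conserved zinc-binding proteins, 3 were higher. Ypel3 read 8.35, 8.37 and 8.44 against 8.83, 8.72, 9.09 and 9.04 (0.54), Ypel2 differed by 0.31 and Ypel5 by 0.24. The calls of Ypel2 and Ypel5 ended without AI-7-54 replicate 3 or 4 (adjusted p in limma up to 0.0571 and 0.100). Tested one by one, the 16010 probe sets without a gene symbol held 81 higher and 80 lower calls (1.01%), against 3.50% of probe sets with 1 symbol.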
